A study of Mus musculus with 15 samples.

Results

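Cultures of mouse cerebellar cells given 100 ng/ml of IL-12 for 18 h were compared with unstimulated cultures, to describe the genes and functions that moved apart from those the study labels in its heatmap and network plots. All 5 cultures titled as stimulated with 100 ng/ml and all 5 titled as unstimulated were taken, which are 10 of the 15 cultures sequenced. The other 5 received 30 ng/ml, and their values are given beside those at 100 ng/ml as a second concentration that shares the same controls. They do not enter the contrast. All 15 cultures were fitted together, so those at 30 ng/ml took part in the filter on low counts and in the estimate of spread behind each p-value. Every culture came from dissociated cerebella of wild-type C57BL/6 pups aged P0 to P4 and was plated at 90000 cells per well. Recombinant murine IL-12p70 was added on day 14 in vitro, and controls were untreated. RNA was sequenced after poly(A) selection, with 25746096 to 34708315 reads assigned to genes per culture at 100 ng/ml and 26473173 to 38435850 in controls (two-sided exact permutation test, p = 0.746). The labels do not say whether replicates came from separate litters or platings, so p-values measure the spread between these cultures, which may be technical.

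IL-12 is a heterodimeric cytokine made by antigen-presenting cells. It binds a receptor of the chains *Il12rb1* and *Il12rb2*, which signal through the kinases *Jak2* and *Tyk2* to STAT4, and it is best known for driving interferon-γ production by T cells and natural killer cells. Whole cultures of postnatal cerebellum can hold neurons as well as microglia, astrocytes, oligodendrocytes and meningeal cells, and any of these may respond to a cytokine or to the products of its neighbors.

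The labels name the cells neurons, and the cultures held RNA of several cell types. Summed over 14 markers of microglia and macrophages, the level was 9003 to 12675 TPM in unstimulated cultures and 8597 to 11288 TPM at 100 ng/ml, where TPM is a share of all transcripts that is corrected for transcript length. The 13 markers of the oligodendrocyte lineage summed to 6662 to 9888 TPM and 5954 to 7232 TPM. The 11 astrocyte markers gave 3839 to 4298 TPM and 4262 to 4718 TPM. The 16 markers of cerebellar neurons summed to 275 to 351 TPM and 312 to 342 TPM, with the Purkinje cell gene *Pcp2* below 0.1 TPM in every culture of both groups. Fibroblast and meningeal markers summed to 1885 to 2089 TPM against 2041 to 2535 TPM, and endothelial markers to 56.3 to 66.3 TPM against 46.8 to 59.2 TPM, with *Cldn5* below 0.1 TPM. Markers of T and NK cells summed to 4.89 to 8.95 TPM and 5.33 to 7.78 TPM, and 8 of the 15, among them *Cd3e*, *Ncr1* and *Prf1*, stayed below 0.1 TPM. In RNA of whole cultures, fewer cells of a type and less RNA per cell cannot be told apart.

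**Figure D1:**
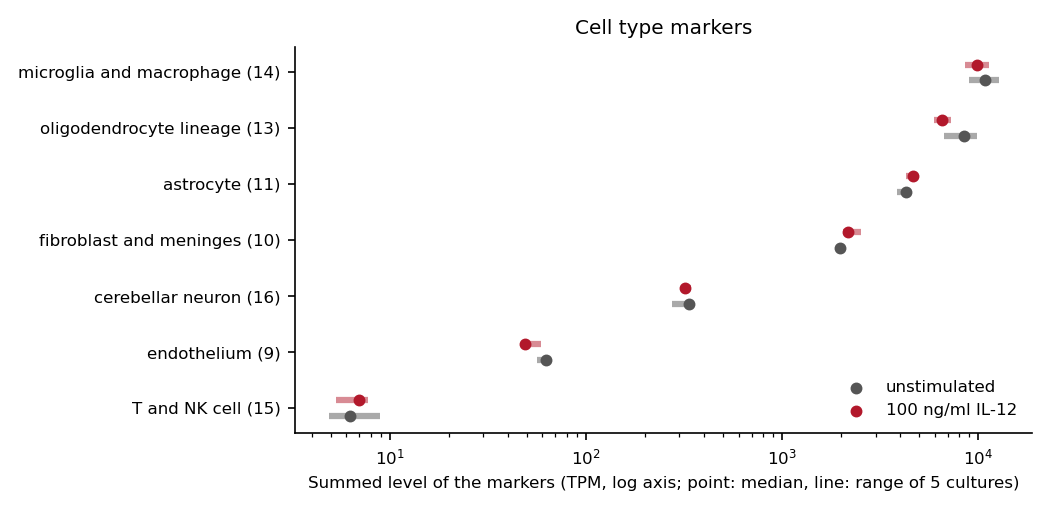
Summed level in TPM (log axis) of 7 lists of cell type markers, with the number of markers in brackets; points are medians and lines the range of 5 cultures in unstimulated (grey) and 100 ng/ml (red) cultures. The microglial sum has the highest medians, 10824 and 9809 TPM, and that of T and NK cells the lowest, 6.25 and 7.02 TPM.

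Of 15360 genes with at least 1 CPM (counts scaled to library size) in at least 2 cultures, 1500 (9.77%) were called at a false discovery rate (FDR) under 0.05, 896 of them higher (5.83%) and 604 lower (3.93%) at 100 ng/ml. These calls came from edgeR's quasi-likelihood test with Benjamini-Hochberg adjustment over all genes tested, as did each FDR and log2 fold change below. Most changes were small. The median size of a called change was 0.285 on the log2 scale, with 821 calls under 0.3, and at least 2-fold changes were seen for 28 genes that rose and 9 that fell. The groups did not overlap for 1102 genes (7.17%). The study names thresholds of 0.01 for P and 0.5 for the log ratio. With these applied to p before adjustment, a reading chosen here, and to the log2 change, 308 genes passed (2.01%), 181 higher and 127 lower. Replicate 2 at 100 ng/ml stood apart from its group, with a mean chi-square per gene of 17.9 to 31.6 against each of the others, which differed among themselves by 5.91 to 13.2. Without this culture, 2932 genes were called, 1518 higher and 1414 lower. Other single cultures moved the count the other way: 953 genes were called without replicate 1 at 100 ng/ml, 949 without replicate 3, 946 without unstimulated replicate 1 and 935 without unstimulated replicate 5. Mitochondrial transcripts held 3.54 ± 0.217% (SD, n = 5) of reads at 100 ng/ml and 3.85 ± 0.205% in controls (two-sided exact permutation test, p = 0.0476).

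**Figure D2:**
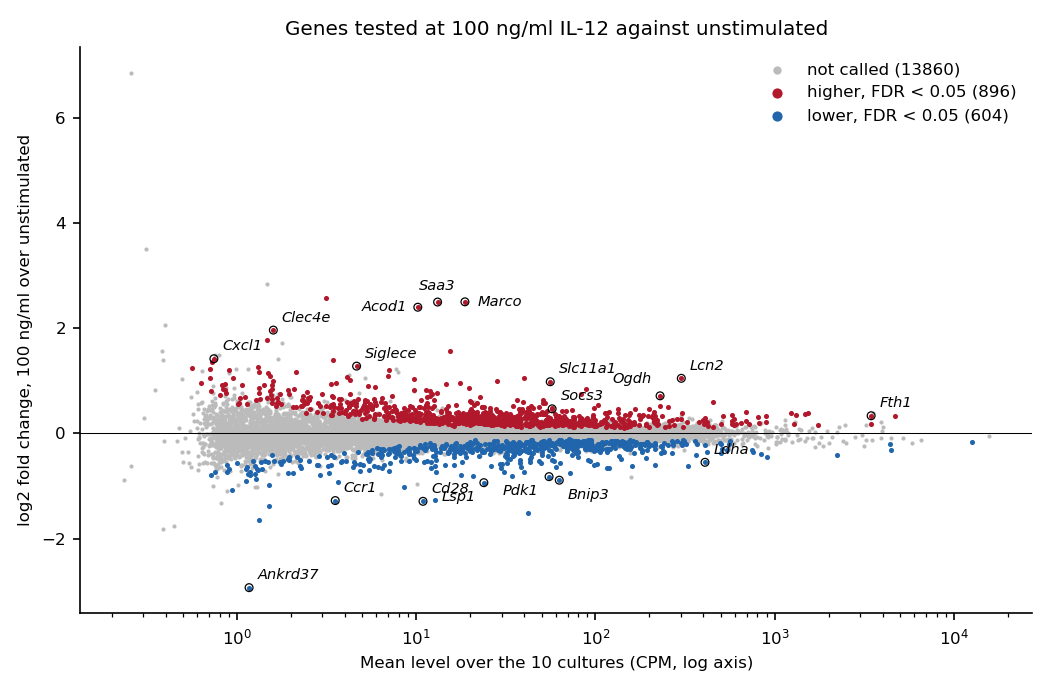
Log2 fold change at 100 ng/ml over unstimulated against the mean level in CPM (log axis) for all 15360 genes tested; red points are the 896 genes called higher, blue points the 604 called lower, and circles mark 18 named genes. *Marco*, *Saa3* and *Acod1* lie near 2.5 at low to moderate levels, and *Ankrd37* is the lowest of the circled genes at -2.93.

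The largest rises were in genes of myeloid sensing and the acute phase. *Marco* (ENSMUSG00000026390, chr1:120402267-120432753, GRCm39) encodes a scavenger receptor of macrophages that binds bacteria and particles. The 5 unstimulated cultures, replicates 1 to 5 in order, held 3.91, 7.73, 5.54, 7.09 and 3.89 CPM of *Marco*, and the 5 cultures at 100 ng/ml held 29.1, 35.2, 35.1, 27.1 and 32.4 CPM. The lowest stimulated culture lay far above the highest control (log2 fold change 2.50 ± 0.17 SE, FDR = 4.82e-08). Cultures at 30 ng/ml were in between, at 11.7 ± 2.17 CPM (SD, n = 5).

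*Saa3* (ENSMUSG00000040026, chr7:46361422-46365576), an acute-phase apolipoprotein made by macrophages and stromal cells, stood at 4.72, 3.51, 3.32, 4.47 and 3.59 CPM in controls and at 21.2, 26.95, 19.9, 25.3 and 18.7 CPM with 100 ng/ml. The groups were again apart (log2 fold change 2.50 ± 0.17 SE, FDR = 4.82e-08), and 30 ng/ml gave 7.44 ± 1.95 CPM. *Acod1* (ENSMUSG00000022126, chr14:103284413-103294009) makes itaconate from the citrate cycle intermediate cis-aconitate in activated macrophages. Its level was 4.33, 2.86, 3.32, 2.65 and 2.90 CPM without IL-12 and 17.5, 20.8, 16.9, 15.5 and 15.3 CPM at 100 ng/ml. The lowest stimulated culture was again far above the highest control (log2 fold change 2.40 ± 0.13 SE, FDR = 2.74e-09), and 30 ng/ml gave 4.99 ± 0.682 CPM.

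Some receptors that recognize microbial sugars and debris were higher as well. Of 34 scavenger and pattern-recognition receptors tested, 10 rose and 0 fell (29.4% called, beside 9.77% of all genes). Without replicate 4 at 100 ng/ml or unstimulated replicate 2, 1 fell. Of the 34 log2 fold changes 21 were above 0, with a median of 0.15 against -0.00379 over all genes tested. *Clec4e* (ENSMUSG00000030142, chr6:123258748-123266829), the C-type lectin Mincle that binds mycobacterial glycolipids, was low in controls at 0.704, 0.465, 0.511, 0.859 and 0.687 CPM. At 100 ng/ml the 5 values were 2.63, 2.73, 2.39, 2.62 and 2.36 CPM, all above the controls (log2 fold change 1.97 ± 0.20 SE, FDR = 9.16e-06). *Clec4d*, its partner MCL on the same chromosome, rose from 4.14 ± 0.153 CPM to 7.61 ± 0.661 CPM (log2 fold change 0.88, FDR = 2.88e-06). *Clec4a1*, another lectin of that cluster, rose from 0.655 ± 0.216 CPM to 2.29 ± 0.236 CPM (log2 fold change 1.78, FDR = 5.88e-05). Genes of this cluster are close copies, so the division of reads among them is uncertain.

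The other receptors called were *Tlr2*, *Clec7a* (Dectin-1, a receptor of fungal β-glucan), *Clec4n*, *Cd14*, *Tlr1*, *Msr1* and *Nod1*. *Tlr2*, which senses bacterial lipoproteins, was at 80.7, 68.98, 97.3, 88.2 and 87.3 CPM in controls and 115, 127, 115, 132 and 124 CPM at 100 ng/ml, without overlap (log2 fold change 0.54 ± 0.08 SE, FDR = 6.84e-04). Its mean at 30 ng/ml was 84.1 ± 9.53 CPM, against 84.5 ± 10.5 CPM in controls. *Siglece* (ENSMUSG00000030474, chr7:43298405-43309607), an inhibitory receptor of sialic acids on myeloid cells, rose from 1.904, 2.65, 3.28, 2.79 and 3.01 CPM to 7.63, 6.25, 6.08, 5.94 and 6.95 CPM (log2 fold change 1.28 ± 0.15 SE, FDR = 5.86e-05). It overlaps *Ceacam18* on the opposite strand, and whether the estimates used the strand is not given in the sources used here. None of the 14 microglial markers tested was called, with log2 fold changes between -0.23 and 0.12.

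**Figure D3:**
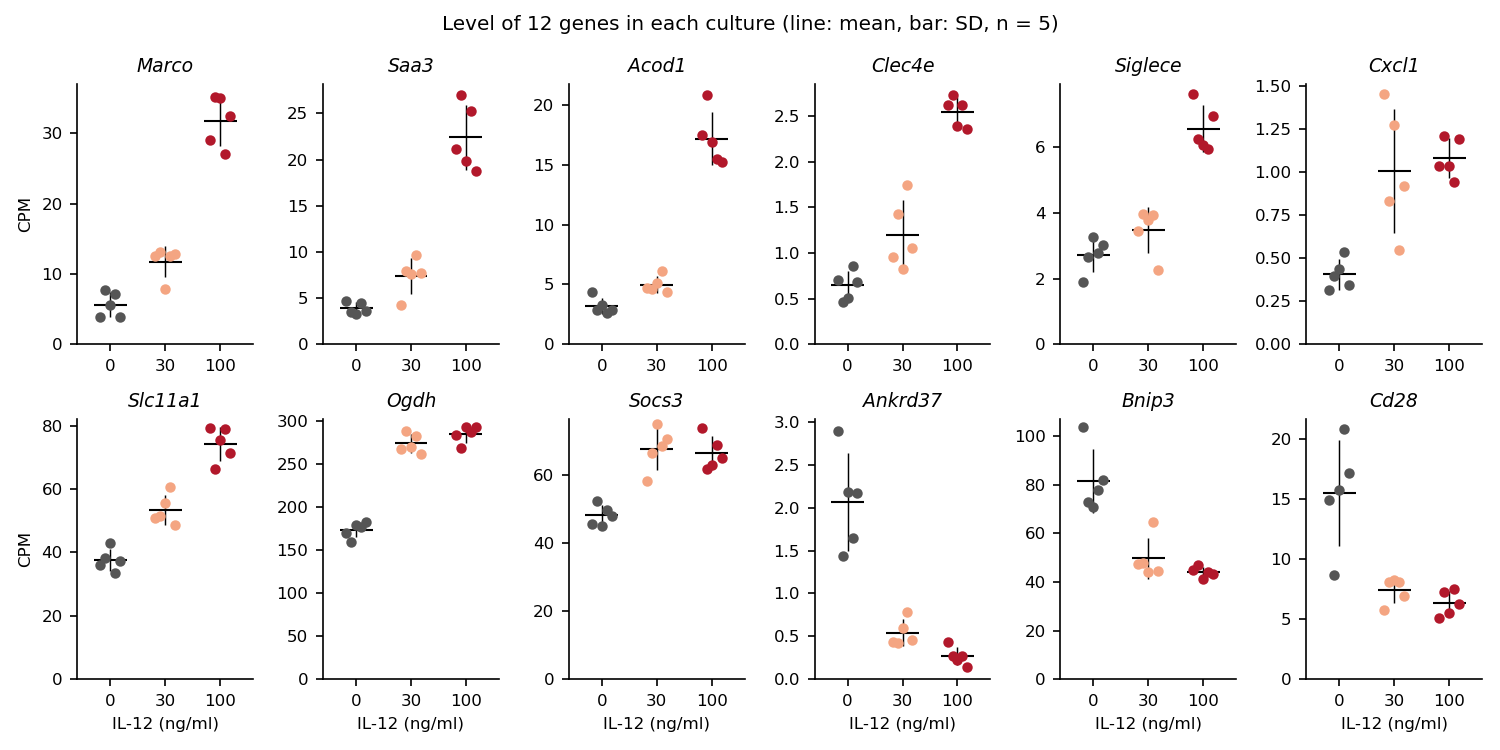
Level in CPM of 12 genes in each culture (points) at 0, 30 and 100 ng/ml IL-12, with the mean (line) and SD (bar) of 5 cultures; every axis starts at 0. The 5 cultures at 100 ng/ml lie above all controls for the first 9 genes and below all controls for *Ankrd37*, *Bnip3* and *Cd28*.

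Genes known to respond to NF-kB, the transcription factor activated downstream of Toll-like, TNF and IL-1 receptors, were called higher in 17 of 35 cases, beside 5.83% of all genes. *Cd83* was lower, a call absent in 7 of the 10 fits without a single culture, and the median log2 fold change was 0.23. Feedback inhibitors of the pathway were among them. *Nfkbia*, which encodes IκBα, was at 30.9, 32.7, 34.3, 32.7 and 32.2 CPM in controls and 42.5, 46.2, 44.1, 41.8 and 42.05 CPM at 100 ng/ml (log2 fold change 0.41 ± 0.05 SE, FDR = 8.35e-05). *Nfkbiz*, the nuclear co-regulator IκBζ, rose from 19.1 ± 0.665 CPM to 27.2 ± 2.29 CPM (log2 fold change 0.51, FDR = 2.51e-04). *Nfkbie*, *Tnip1*, *Tnip3* and *Zc3h12a*, further brakes on this pathway or its transcripts, were also called higher. *Lcn2*, the siderophore-binding acute-phase protein lipocalin 2, stood at 183, 206, 257, 141 and 194 CPM and 455, 411, 319.7, 363 and 482 CPM (log2 fold change 1.05 ± 0.16 SE, FDR = 4.51e-04). The subunits *Rela*, *Rel* and *Nfkb1* did not pass the test, with log2 fold changes of -0.04, -0.11 and 0.11, while *Nfkb2* did (log2 fold change 0.24, FDR = 0.01202).

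The 250 bases before the annotated start are printed for *Nfkbia*, for *Acod1* as the strongest metabolic member above and for the chemokine *Cxcl1*, because each holds letters of an NF-kB site. The sequences are from RefSeq (GRCm38.p6), 5′ to 3′ on the strand of the gene, at chr12:55492648-55492897 (minus strand), chr14:103046762-103047011 (plus strand) and chr5:90890995-90891244 (plus strand). Capitals mark GGNNTTTCC on either strand.
Nfkbia: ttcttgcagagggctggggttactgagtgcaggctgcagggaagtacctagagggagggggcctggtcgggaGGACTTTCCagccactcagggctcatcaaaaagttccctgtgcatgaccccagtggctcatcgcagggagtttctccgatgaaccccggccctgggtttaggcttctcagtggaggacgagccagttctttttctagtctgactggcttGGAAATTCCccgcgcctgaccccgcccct
Acod1: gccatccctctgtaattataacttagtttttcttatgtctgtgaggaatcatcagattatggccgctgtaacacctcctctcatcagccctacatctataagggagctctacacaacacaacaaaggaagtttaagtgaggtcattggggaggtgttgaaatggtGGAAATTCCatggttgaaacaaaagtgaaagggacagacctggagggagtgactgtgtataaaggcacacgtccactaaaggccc
Cxcl1: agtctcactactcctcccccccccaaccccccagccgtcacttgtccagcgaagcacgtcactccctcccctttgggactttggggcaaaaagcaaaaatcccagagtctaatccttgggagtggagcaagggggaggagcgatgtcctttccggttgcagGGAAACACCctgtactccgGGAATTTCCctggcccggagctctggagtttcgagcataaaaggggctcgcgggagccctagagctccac
The matches began 178 and 29 bases before the start of *Nfkbia*, 85 bases before that of *Acod1*, and 89 and 70 bases before that of *Cxcl1*.

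Chemokines rose, and the chemokine receptor *Ccr1* fell. In the list of 19 chemokines and receptors tested, 9 were higher and 2 were lower (57.9% called, beside 9.77% of all genes). The median was 0.21, and 4 of the 9 are also in the NF-kB list. *Cxcl1* (ENSMUSG00000029380, chr5:91039094-91040974), which draws neutrophils, was low in controls at 0.313, 0.394, 0.438, 0.537 and 0.343 CPM and reached 1.03, 1.21, 1.04, 0.9403 and 1.19 CPM at 100 ng/ml (log2 fold change 1.42 ± 0.25 SE, FDR = 0.00165). *Cxcl5*, a related neutrophil chemokine, rose from 1.32 ± 0.216 CPM to 2.95 ± 0.303 CPM (log2 fold change 1.16, FDR = 3.87e-04). *Cxcl16*, which binds the receptor Cxcr6 of T cells, rose from 28.4 ± 2.86 CPM to 40.7 ± 3.099 CPM (log2 fold change 0.52, FDR = 8.59e-04). *Ccl4*, which draws monocytes and T cells, rose from 10.3 ± 1.17 CPM to 14.9 ± 1.32 CPM (log2 fold change 0.53, FDR = 0.00249).

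*Ccr1* (ENSMUSG00000025804, chr9:123762161-123768734), a receptor of inflammatory CC chemokines on myeloid cells, was at 4.07, 3.29, 4.63, 8.88 and 4.16 CPM in controls and at 1.94, 2.54, 1.52, 1.81 and 2.502 CPM with 100 ng/ml. All stimulated cultures were below the controls, although unstimulated replicate 4 exceeded the other controls by far (log2 fold change -1.28 ± 0.25 SE, FDR = 0.00367). Cytokines and growth factors held few calls, with 2 of 43 higher and 1 lower (6.98% called, beside 9.77% of all genes). Their median was 0.03. The 2 that rose were *Il34*, a ligand of the microglial growth receptor Csf1r (log2 fold change 0.51, FDR = 0.01597), and *Ereg*, a ligand of the EGF receptor (log2 fold change 0.57, FDR = 0.0298). *Bmp6* was lower by a margin that 9 of the 10 omissions of a single culture removed (log2 fold change -0.17, FDR = 0.0499), and without unstimulated replicate 1 or 5 only 1 of the 2 rises was called.

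Genes of the IL-12 receptor were present at low levels and did not pass the test. *Il12rb1* was at 1.33, 1.04, 0.985, 0.823 and 1.07 CPM in controls and 0.845, 0.8203, 0.873, 0.873 and 1.16 CPM at 100 ng/ml, overlapping groups (log2 fold change -0.20 ± 0.20 SE, FDR = 0.562). *Il12rb2*, the chain that binds the IL-12-specific subunit, was at 3.78, 3.69, 3.32, 3.65 and 4.04 CPM and 4.004, 4.96, 3.88, 4.57 and 4.54 CPM (log2 fold change 0.25 ± 0.11 SE, FDR = 0.184). *Jak2* and *Tyk2* had log2 fold changes of -0.07 (FDR = 0.509) and 0.08 (FDR = 0.398). *Stat4* lay under the filter and was not tested, with 0 to 4 reads in a control culture and 1 to 3 at 100 ng/ml.

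In the list of 21 genes of IL-12 receptor and JAK-STAT signaling tested, 2 rose and 1 fell (14.3% called, beside 9.77% of all genes). *Socs3* (ENSMUSG00000053113, chr11:117856905-117860898), the feedback inhibitor induced by STAT3, stood at 45.5, 52.4, 45.04, 49.6 and 47.9 CPM in controls and 73.9, 61.9, 62.95, 68.8 and 65.1 CPM at 100 ng/ml, without overlap (log2 fold change 0.47 ± 0.07 SE, FDR = 2.53e-04). At 30 ng/ml it was 67.7 ± 6.12 CPM. The bases before its start (chr11:117969367-117969616, minus strand, RefSeq, GRCm38.p6) are printed because they hold the letters TTCNNNGAA of a STAT site, in capitals, 154 bases before the start.
Socs3: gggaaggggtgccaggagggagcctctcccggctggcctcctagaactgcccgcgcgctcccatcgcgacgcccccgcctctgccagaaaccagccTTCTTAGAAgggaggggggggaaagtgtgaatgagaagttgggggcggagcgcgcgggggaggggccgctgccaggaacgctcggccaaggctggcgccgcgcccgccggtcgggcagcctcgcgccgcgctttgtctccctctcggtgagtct
*Jak3*, the kinase of the common γ chain, fell from 36.3 ± 5.66 CPM to 24.1 ± 2.72 CPM (log2 fold change -0.59, FDR = 0.00145). *Stat5a* rose slightly (log2 fold change 0.26, FDR = 0.0401), and its call was lost in 7 of the 10 fits without a single culture.

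Genes known to respond to interferon-γ, the classical product of IL-12-activated lymphocytes, were called in both directions. Of 23 tested, 3 rose and 2 fell (21.7% called, beside 9.77% of all genes), with a median of 0.12 and 20 of 23 log2 fold changes above 0. *Gbp3* (log2 fold change 0.75, FDR = 0.00587) and *Gbp2* (log2 fold change 0.35, FDR = 0.00156), guanylate-binding proteins of cell-autonomous defence, and *Psmb10*, an immunoproteasome subunit (log2 fold change 0.30, FDR = 0.0234), were higher. *Cd274*, which encodes PD-L1, and *Irf8* were lower (log2 fold change -0.39, FDR = 0.0286 for *Cd274*). These 2 falls were not called without replicates 1, 3 or 5 at 100 ng/ml or without unstimulated replicates 3 or 4. *Irf1* (0.05) was not called. *Ifng* itself held 0 to 1 reads in a control culture and 0 at 100 ng/ml. Of 26 genes responsive to type I interferon only *Ifi35* was called (log2 fold change 0.24, FDR = 0.0416), in 4 of the 10 fits without a single culture, and of 19 complement genes only *C1ra* (log2 fold change 0.35, FDR = 0.00246). The shares called were 3.85% of the type I interferon list and 5.26% of complement genes, beside 9.77% of all genes. MHC and antigen processing gave 3 rises among 21 genes, *H2-Q4*, *Psme1* and *Psme2* (14.3% called, beside 9.77% of all genes). In that list 1 was called when any of 5 cultures was left out, replicates 1 and 4 at 100 ng/ml and unstimulated replicates 1, 2 and 5. 

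In iron handling 9 of 17 members rose and 1 fell (58.8% called, beside 9.77% of all genes), with a median of 0.30. *Slc11a1* (ENSMUSG00000026177, chr1:74414303-74425448), the Nramp1 pump that moves iron and manganese out of phagosomes, was at 36.2, 38.1, 42.96, 33.4 and 37.3 CPM in controls and 79.2, 66.4, 75.5, 78.9 and 71.5 CPM at 100 ng/ml (log2 fold change 0.98 ± 0.07 SE, FDR = 1.23e-07). The cultures did not overlap, and those at 30 ng/ml averaged 53.4 ± 4.79 CPM. *Fbxl5* (ENSMUSG00000039753, chr5:43900859-43978980), the iron-sensing ligase that degrades iron regulatory protein 2, rose from 41.2, 41.5, 39.02, 41.1 and 41.4 CPM to 58.1, 67.1, 58.1, 61.2 and 61.4 CPM (log2 fold change 0.58 ± 0.05 SE, FDR = 3.28e-07). *Steap3*, the ferrireductase of endosomes, rose from 17.5 ± 0.948 CPM to 25.99 ± 2.303 CPM (log2 fold change 0.57, FDR = 3.11e-05).

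The ferritin subunits that store iron rose too. *Fth1*, the heavy chain, was at 2954, 2908, 3203, 3189 and 2988 CPM and 3955, 3776, 3878, 3956 and 3687 CPM (log2 fold change 0.34 ± 0.05 SE, FDR = 2.73e-04), and *Ftl1*, the light chain, had a log2 fold change of 0.33 (FDR = 0.0105). Both ferritins have many processed pseudogenes, which limits the division of their reads. *Tfrc* (ENSMUSG00000022797, chr16:32427556-32451612), the transferrin receptor that brings iron in, was the member that fell, from 122, 117, 116, 113 and 123 CPM to 68.4, 91.4, 74.6, 76.3 and 79.4 CPM (log2 fold change -0.60 ± 0.07 SE, FDR = 2.23e-05). It is also a network hub of the study. *Cp*, *Hfe*, *Lcn2* and *Slc11a2* were the other members called higher, and the exporter *Slc40a1* had a log2 fold change of -0.15 (FDR = 0.451). In the fits that left out 1 culture, 8 to 10 members were higher.

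Genes known to respond to NRF2, the regulator of antioxidant defence, rose in 9 of 27 cases and fell in none (33.3% called, beside 9.77% of all genes). The median was 0.13, and 26 of 27 log2 fold changes were above 0. The list shares *Fth1*, *Ftl1* and *Hmox1* with iron handling. *Txnrd1*, thioredoxin reductase, was at 157, 168, 158, 158 and 162 CPM in controls and 188, 197, 199.96, 194 and 193 CPM at 100 ng/ml (log2 fold change 0.27 ± 0.04 SE, FDR = 1.20e-04). *G6pdx*, the entry enzyme of the pentose phosphate pathway that supplies NADPH, rose from 67.05 ± 2.91 CPM to 83.4 ± 3.27 CPM (log2 fold change 0.32, FDR = 1.87e-04). *Mt1*, a metallothionein that binds zinc and copper, rose from 1074 ± 100.1 CPM to 1402 ± 104 CPM (log2 fold change 0.38, FDR = 0.001196). *Srxn1*, *Prdx1*, *Mt2* and *Slc7a11* were also higher, and the 2 ferritins count in this list as well. *Hmox1*, the heme-degrading enzyme, was not called (log2 fold change 0.14, FDR = 0.212).

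Single metabolic genes were among the clearest changes. *Ogdh* (ENSMUSG00000020456, chr11:6241551-6309233), a subunit of the α-ketoglutarate dehydrogenase of the citrate cycle, had 170.4, 159.7, 179, 177 and 182 CPM in controls and 283, 268, 293, 287 and 293 CPM at 100 ng/ml. The gap of the groups was several times their spread (log2 fold change 0.72 ± 0.04 SE, FDR = 1.62e-08), and 30 ng/ml gave a close value of 274 ± 10.9 CPM. *Slc43a3*, a transporter of purine nucleobases, rose from 62.5, 61.7, 67.7, 59.5 and 60.2 CPM to 112, 103, 101, 101 and 107 CPM (log2 fold change 0.75 ± 0.05 SE, FDR = 4.82e-08). *Aoc1*, diamine oxidase, which breaks down histamine and putrescine, rose from 4.45 ± 0.242 CPM to 9.53 ± 1.03 CPM (log2 fold change 1.10, FDR = 7.04e-07). *As3mt*, arsenite methyltransferase, rose from 4.26 ± 0.551 CPM to 9.84 ± 1.41 CPM (log2 fold change 1.204, FDR = 2.55e-05). *Aldh1a7*, an aldehyde dehydrogenase with close paralogs, rose from 0.813 ± 0.0908 CPM to 1.83 ± 0.431 CPM (log2 fold change 1.16, FDR = 5.84e-04). *Gjb6*, the astrocyte gap junction protein connexin 30, rose as well, from 0.549 ± 0.121 CPM to 1.25 ± 0.171 CPM (log2 fold change 1.21, FDR = 5.40e-04). Of 11 astrocyte markers, *Gjb6* and *Aldoc* were called higher and *Gja1* lower (log2 fold change -0.19, FDR = 0.0168). This was 27.3% called, beside 9.77% of all genes, with 6 log2 fold changes above 0 and a median of 0.07. *Clca3a2* was low, at 0.396 ± 0.113 CPM in controls and 1.05 ± 0.321 CPM at 100 ng/ml (log2 fold change 1.36, FDR = 0.0123), overlaps a gene on the opposite strand, and was not called with length-scaled TPM (log2 fold change 0.65, FDR = 0.318). *As3mt*, *Aldh1a7*, *Gjb6* and *Clca3a2* complete the 12 largest rises among genes that met the naming rule, which leaves out those labelled by the study.

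Many genes known to be induced by hypoxia fell. These are targets of HIF, a transcription factor that prolyl hydroxylases keep low while oxygen is present. Of 27 tested, 14 fell and 2 rose (59.3% called, beside 9.77% of all genes), with a median log2 fold change of -0.24. In each fit that left out 1 culture, 14 to 15 were lower. The 2 rises, *Slc2a3* and *Pfkfb4*, were each small (log2 fold change 0.15, FDR = 0.01801 and log2 fold change 0.17, FDR = 0.0436), and leaving out replicate 3 at 100 ng/ml removed both. All other single omissions but that of replicate 2 at 100 ng/ml left 1.

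*Ankrd37* (ENSMUSG00000050914, chr8:46449939-46458744), an ankyrin repeat protein and a direct HIF target, showed the largest fall of all named genes. Its level was 2.896, 1.43, 2.19, 1.65 and 2.17 CPM in controls and 0.438, 0.273, 0.226, 0.269 and 0.145 CPM at 100 ng/ml (log2 fold change -2.93 ± 0.27 SE, FDR = 3.14e-06), with 0.538 ± 0.158 CPM at 30 ng/ml. It overlaps *Ufsp2* and *Lrp2bp* on the opposite strand. *Bnip3* (ENSMUSG00000078566, chr7:138490690-138511253), a receptor for mitophagy, the removal of mitochondria by autophagy, fell from 104, 73.1, 70.7, 77.97 and 82.1 CPM to 44.8, 46.99, 41.3, 43.9 and 43.5 CPM without overlap (log2 fold change -0.89 ± 0.11 SE, FDR = 5.86e-05). Its relative *Bnip3l* fell less, from 165 ± 3.42 CPM to 135 ± 5.69 CPM (log2 fold change -0.30, FDR = 7.74e-05).

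*Ankrd37* and *Bnip3* are shown with the bases before their starts (RefSeq, GRCm38.p6, chr8:45999851-46000100 and chr7:138909507-138909756, both minus strand), as the members with the largest falls outside the genes labelled by the study. Capitals mark the HIF core ACGTG on either strand, 241 and 6 bases before the start of *Ankrd37* and 108 bases before that of *Bnip3*. In *Bnip3* the letters read CACGTG, so matches on both strands overlap, and the last g is not in capitals.
Ankrd37: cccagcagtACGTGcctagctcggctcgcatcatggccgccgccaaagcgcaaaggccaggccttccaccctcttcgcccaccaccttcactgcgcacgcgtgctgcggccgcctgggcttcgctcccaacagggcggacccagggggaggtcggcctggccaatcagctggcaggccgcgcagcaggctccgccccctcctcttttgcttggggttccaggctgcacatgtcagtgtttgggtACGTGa
Bnip3: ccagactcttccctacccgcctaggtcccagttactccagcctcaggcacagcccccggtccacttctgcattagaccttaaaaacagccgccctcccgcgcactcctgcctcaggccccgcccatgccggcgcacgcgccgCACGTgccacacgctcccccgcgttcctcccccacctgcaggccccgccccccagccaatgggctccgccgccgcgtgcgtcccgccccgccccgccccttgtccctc

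*Pdk1* (ENSMUSG00000006494, chr2:71703488-71734202), the kinase that shuts pyruvate out of the citrate cycle, was at 82.3, 58.1, 68.2, 69.9 and 73.3 CPM in controls and 38.2, 40.1, 37.6, 40.1 and 43.2 CPM at 100 ng/ml (log2 fold change -0.82 ± 0.10 SE, FDR = 6.94e-05). *Ak4*, an adenylate kinase of mitochondria, fell from 26.4 ± 3.35 CPM to 15.1 ± 0.917 CPM (log2 fold change -0.81, FDR = 8.65e-05). The HIF prolyl hydroxylases *Egln3* (log2 fold change -0.80, FDR = 9.20e-05) and *Egln1* (log2 fold change -0.21, FDR = 0.00328) were lower, as was *Vegfa*, the vascular growth factor (log2 fold change -0.57, FDR = 0.002804). *P4ha1*, which hydroxylates collagen (log2 fold change -0.67, FDR = 2.74e-06), *Ero1a*, an oxidase of protein folding (log2 fold change -0.50, FDR = 2.48e-04), *Kdm3a* and *Mxi1* were also among the falls. *Vegfa*, *Slc16a3* and *Tpi1* are labelled in the study's plots. The study describes them as hubs of a module that IL-12 induced, and lists hypoxia among the pathways that IL-12 triggered. From qPCR in neuronal cultures with and without *Il12rb2*, it also reports that module genes, *Fgf2* and *Vegfa*, depended on this receptor chain. In the counts used here *Vegfa*, *Slc16a3* and *Tpi1* were lower, and the reason for this difference was not tested.

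Genes of glycolysis fell in a like share, and the list has in common with the hypoxia-inducible genes *Slc2a1*, *Slc2a3* and *Slc16a3*. Of 21 genes tested, 11 fell and 3 rose (66.7% called, beside 9.77% of all genes), with a median of -0.23. *Slc2a1*, the glucose transporter GLUT1, was at 147, 150.02, 159, 159 and 158 CPM and 122, 97.1, 113, 123 and 122 CPM (log2 fold change -0.42 ± 0.06 SE, FDR = 1.81e-04). *Pfkl*, the liver type of phosphofructokinase, fell from 153, 120.1, 140.00, 149 and 151 CPM to 99.6, 74.1, 88.7, 92.2 and 98.4 CPM (log2 fold change -0.65 ± 0.10 SE, FDR = 6.81e-04). *Ldha*, which turns pyruvate into lactate, fell from 525, 426, 489.9, 499 and 485 CPM to 358, 297, 341, 334 and 327 CPM, and the highest stimulated culture was below the lowest control (log2 fold change -0.55 ± 0.08 SE, FDR = 3.87e-04).

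The steps in between fell as well. *Pgk1*, phosphoglycerate kinase, went from 603 ± 23.9 CPM to 484 ± 18.3 CPM (log2 fold change -0.32, FDR = 4.21e-04). *Gpi1* (-0.22), *Aldoa* (-0.35), *Tpi1* (-0.62), *Pgam1* (-0.36), *Eno1* (-0.32), *Pkm* (-0.45) and the lactate exporter *Slc16a3* (-1.52) were lower on the log2 scale of fold change. *Gapdh* had a log2 fold change of -0.23 and narrowly missed the threshold (FDR = 0.0545). The 3 rises were *Aldoc*, the astrocyte and Purkinje cell type of aldolase (log2 fold change 0.29, FDR = 0.00651), *Slc2a3*, the neuronal glucose transporter, and *Pfkm*, the muscle type of phosphofructokinase (log2 fold change 0.17, FDR = 0.0432). Without replicate 3 at 100 ng/ml, 1 member of the list was higher. Several glycolytic genes have processed pseudogenes that can share their reads.

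**Figure D4:**
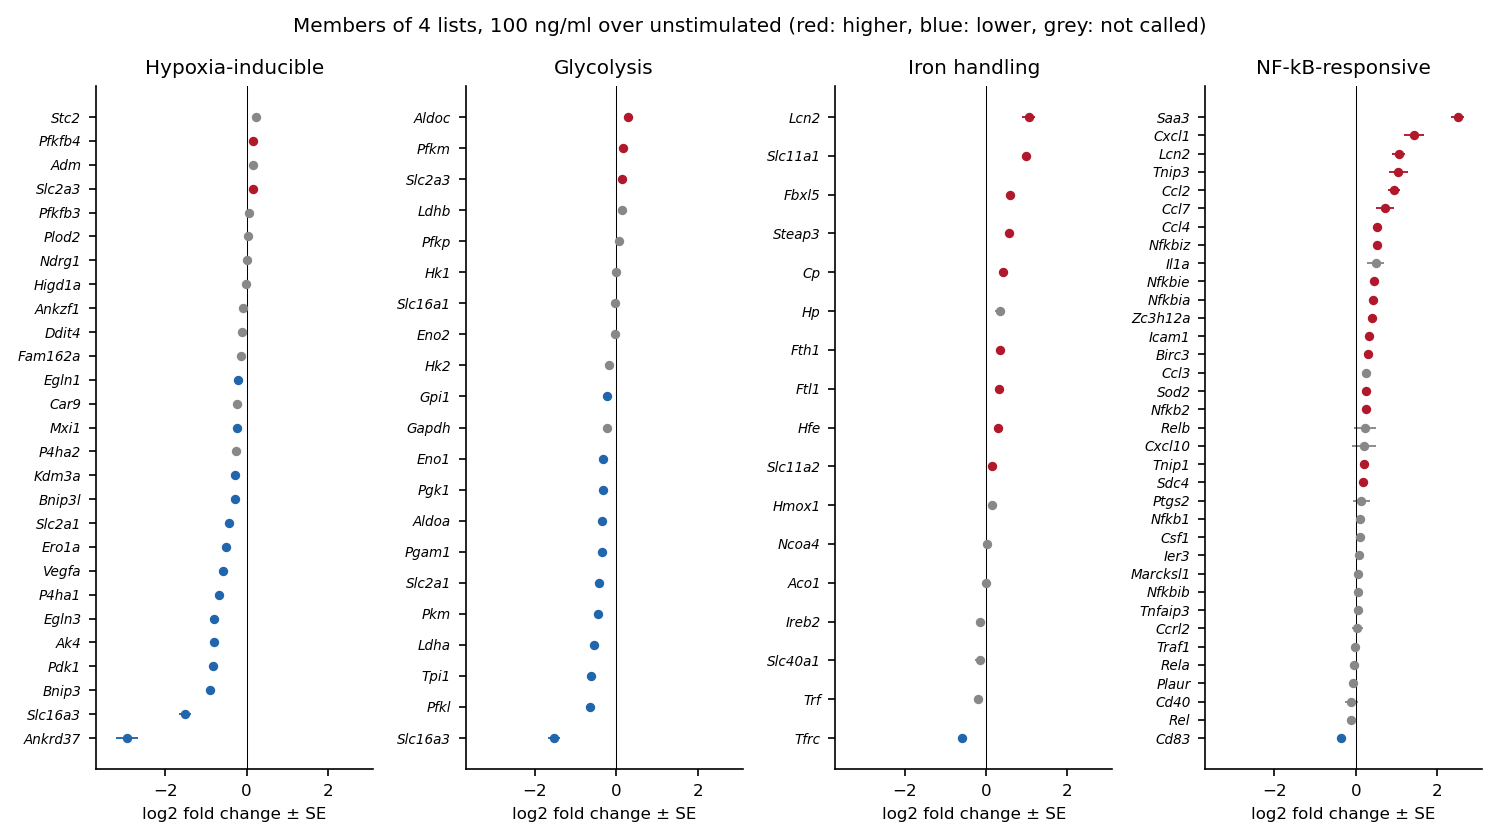
Log2 fold change at 100 ng/ml over unstimulated, with its standard error, for every tested member of 4 lists: hypoxia-inducible genes (27), glycolysis (21), iron handling (17) and NF-kB-responsive genes (35); red is higher and blue lower at an FDR under 0.05. The first 2 lists hold 14 and 11 members that fell, and the last 2 hold 9 and 17 that rose.

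Nuclear genes of oxidative phosphorylation changed little, with 5.45% called beside 9.77% of all genes. Of 55 tested, 52 had log2 fold changes above 0, but the median was 0.05, and 3 were called, *Cycs* (log2 fold change 0.30, FDR = 0.0164), *Cox5a* (log2 fold change 0.21, FDR = 0.0219) and *Ndufv1* (log2 fold change 0.16, FDR = 0.0432). Without replicate 2 at 100 ng/ml 7 were called, and without unstimulated replicate 1 only 1. Ribosomal protein genes behaved alike, with 54 of 55 above 0, a median of 0.08 and 2 calls (3.64%), *Rpsa* and *Rps2*. Leaving out single cultures gave 0 to 11 calls, the highest without replicate 2 at 100 ng/ml. Under RLE factors, DESeq2 or library size alone, 52 to 53 and 54 genes of the 2 lists were above 0. Of the oxidative phosphorylation genes, 42 were above 0 without replicate 1 at 100 ng/ml and 44 without unstimulated replicate 1.

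Immediate early genes, the fast transcriptional responders to stimulation and depolarization, held 7 falls and no rise among 28 tested at this single time of 18 h. The share called was 25%, beside 9.77% of all genes, and the median was -0.14. *Fos*, a subunit of AP-1, was at 90.1, 99.2, 82.5, 83.5 and 91.6 CPM in controls and 72.4, 68.3, 65.5, 70.1 and 72.5 CPM at 100 ng/ml (log2 fold change -0.36 ± 0.06 SE, FDR = 0.00119). *Nr4a3*, a nuclear receptor, fell from 14.6 ± 0.785 CPM to 10.8 ± 0.6796 CPM (log2 fold change -0.43, FDR = 2.38e-04). *Zfp36*, which destabilizes cytokine transcripts, fell from 50.4 ± 5.596 CPM to 35.9 ± 2.05 CPM (log2 fold change -0.49, FDR = 4.51e-04). *Dusp1*, a phosphatase of MAP kinases, fell from 42.6 ± 2.54 CPM to 33.4 ± 2.36 CPM (log2 fold change -0.35, FDR = 0.00657), and *Ier2*, *Atf3* and *Nr4a1* were also lower.

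Other large falls were in genes of immune cells and of the membrane. *Cd28* (ENSMUSG00000026012, chr1:60755959-60812518), best known as the costimulatory receptor of T cells, was at 14.9, 8.698, 15.8, 20.9 and 17.2 CPM in controls and 5.13, 7.23, 5.53, 7.52 and 6.29 CPM at 100 ng/ml (log2 fold change -1.29 ± 0.18 SE, FDR = 2.20e-04). The groups did not overlap, while the T cell genes *Cd3e*, *Cd3g* and *Cd2* were below 0.1 TPM in these cultures. *Lsp1* (ENSMUSG00000018819, chr7:142010740-142048604), an actin-binding protein of leukocytes, fell from 31.9, 25.7, 37.01, 34.6 and 27.5 CPM to 16.3, 13.3, 16.5, 17.8 and 17.9 CPM (log2 fold change -0.94 ± 0.12 SE, FDR = 1.56e-04). *Minar1* (ENSMUSG00000039313, chr9:89469269-89505606), a membrane protein that binds Notch2, fell from 11.9, 10.02, 11.6, 11.8 and 11.9 CPM to 4.79, 6.84, 4.497, 6.65 and 5.499 CPM (log2 fold change -1.02 ± 0.11 SE, FDR = 1.58e-05).

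*Nanos1*, an RNA-binding repressor of translation (log2 fold change -0.51, FDR = 1.75e-05), and *Narf*, a binding partner of prelamin A (log2 fold change -0.65, FDR = 8.56e-05), had small p-values with smaller changes. *Prelid2* (log2 fold change -1.38, FDR = 2.51e-04), *Baiap2l2*, a membrane-bending protein (log2 fold change -1.07, FDR = 0.00898), and *Ceacam2*, an adhesion molecule (log2 fold change -0.91, FDR = 0.00216), were low in all cultures, with control means from 1.28 ± 0.424 CPM for *Baiap2l2* to 2.19 ± 0.519 CPM for *Prelid2*. *Ltc4s*, leukotriene C4 synthase, fell from 14.8 ± 3.21 CPM to 9.304 ± 1.95 CPM (log2 fold change -0.66, FDR = 0.0104). It belongs to a list of 20 metabolic effectors of immunity, 25% of them called beside 9.77% of all genes. In that list, *Acod1*, *Ptges*, a prostaglandin E synthase (log2 fold change 0.24, FDR = 0.00688), *Ch25h*, which makes 25-hydroxycholesterol (log2 fold change 0.38, FDR = 0.0212), and *Slc7a11* rose, while 2 members were higher without replicate 4 at 100 ng/ml.

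Extracellular proteases and their inhibitors changed in both directions, 8 of 31 higher and 3 lower (35.5% called, beside 9.77% of all genes). *Mmp14*, the membrane-bound collagenase, was at 191, 185, 176, 197 and 193 CPM in controls and 281, 250.1, 291, 255 and 275 CPM at 100 ng/ml (log2 fold change 0.52 ± 0.05 SE, FDR = 2.88e-06). *Adamts5*, which cleaves aggrecan, rose from 45.4 ± 1.37 CPM to 59.1 ± 5.97 CPM (log2 fold change 0.38, FDR = 0.00117), and *Mmp19* rose from 34.96 ± 1.59 CPM to 42.03 ± 2.89 CPM (log2 fold change 0.27, FDR = 0.00224). *Plau*, urokinase, fell from 155, 147, 178, 167 and 168 CPM to 107, 128, 105, 119 and 123 CPM (log2 fold change -0.48 ± 0.08 SE, FDR = 0.00116). *Mmp15* and *Adam8* were the other falls, and 1 fall was called without replicate 1 at 100 ng/ml or unstimulated replicate 5.

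Of 46 genes of the extracellular matrix, 6 rose and none fell, with a median of 0.07. They were *Thbs2* (log2 fold change 0.35, FDR = 0.002498), *Col5a3* (log2 fold change 0.28, FDR = 0.0136), *Emilin1* (log2 fold change 0.37, FDR = 0.0195), *Col1a1* (log2 fold change 0.36, FDR = 0.0282), *Col12a1* and *Eln*, while 3 genes were called higher without replicate 3 at 100 ng/ml or unstimulated replicate 2, and without the latter 2 were lower. Of 9 markers of fibroblasts and meninges tested, *Pdgfrb* (log2 fold change 0.31, FDR = 0.006498) and *Col1a1*, itself a member of the matrix list, rose, none fell and the median was 0.07 (22.2% called, beside 9.77% of all genes). The part of these cells in the matrix calls was not tested.

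Genes of DNA replication and division gave 6 rises among 35 tested and no fall (17.1% called, beside 9.77% of all genes). The median was 0.02. *Rrm2*, a subunit of ribonucleotide reductase, rose from 61.4 ± 1.15 CPM to 72.6 ± 4.33 CPM (log2 fold change 0.24, FDR = 0.00307). *Ccne1*, cyclin E1 (log2 fold change 0.32, FDR = 0.00639), *Mcm2*, of the replicative helicase (log2 fold change 0.23, FDR = 0.00744), *Ccnd1*, cyclin D1 (log2 fold change 0.23, FDR = 0.0136), *Cdc6* and *Cdc45* were also higher, all genes of the G1 and S phases. Genes of amino-acid supply and tRNA charging were higher in 7 of 30 cases and lower in 2 (30% called, beside 9.77% of all genes). *Phgdh*, which opens serine synthesis (log2 fold change 0.27, FDR = 0.0107), *Shmt2* (log2 fold change 0.26, FDR = 0.0193) and *Mars1* (log2 fold change 0.17, FDR = 0.0138) were among the former. The stress gene *Trib3* was lower (log2 fold change -0.38, FDR = 0.0253), with *Sesn2*. Fits without single cultures gave 2 to 8 rises in this list, 2 without replicate 1 at 100 ng/ml and 3 or 4 without all others but replicates 2 and 5 at 100 ng/ml.

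Chaperones gave 3 rises and 1 fall among 28 genes (14.3% called, beside 9.77% of all genes). They were *Hspb1* (log2 fold change 0.38, FDR = 0.00419), *Hspa8* (log2 fold change 0.16, FDR = 0.00863), *Herpud1* (log2 fold change 0.18, FDR = 0.0156) and the stress-inducible *Hspa1a* (log2 fold change -0.28, FDR = 0.0296). Without replicate 2 at 100 ng/ml there were 5 rises and 2 falls. Lists of lipid metabolism moved little. Of genes of cholesterol synthesis 17.4% were called, and of efflux and lipid handling 12.9%, beside 9.77% of all genes. In cholesterol synthesis, *Pmvk* (log2 fold change 0.25, FDR = 0.00488) and *Mvk* (log2 fold change 0.20, FDR = 0.0443) rose and *Hsd17b7* (log2 fold change -0.57, FDR = 0.00112) and *Msmo1* (log2 fold change -0.13, FDR = 0.0405) fell among 23 genes, and most fits without a single culture left 1 call each way. In efflux and lipid handling, *Nr1h3*, the sterol-sensing receptor LXRα, rose from 4.52 ± 0.764 CPM to 7.13 ± 0.7595 CPM (log2 fold change 0.65, FDR = 0.001196), with *Fabp7* (log2 fold change 0.33, FDR = 0.0161) and *Plin4* (log2 fold change 0.67, FDR = 0.0384) also higher and *Scd2* lower (log2 fold change -0.19, FDR = 0.0429) among 31 genes. *Plin4* and *Scd2* each lost their call in 7 of the 10 fits without a single culture. Of 37 genes of the lysosome and phagosome, *Ctsc* (log2 fold change 0.32, FDR = 0.0151), *Ctsk* and *Neu1* rose and *Npc1* fell. This was 10.8% called, beside 9.77% of all genes, with a median of -0.09. Of these, *Ctsk*, *Neu1* and *Npc1* lost their calls in many fits without a single culture.

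Neuronal lists held few calls: 3.70% of presynaptic, 5.88% of postsynaptic and 10.3% of channel genes, beside 9.77% of all genes. Of 27 presynaptic and vesicle genes, 1 was lower, none was higher and the median was -0.18, with 3 of 27 log2 fold changes above 0. In 6 of the 10 fits without a single culture none was lower (replicates 3, 4 and 5 at 100 ng/ml and unstimulated replicates 1, 3 and 5), while 7 were lower without replicate 2 at 100 ng/ml and 4 without unstimulated replicate 4. Of 34 postsynaptic genes, the scaffold *Shank3* was higher (log2 fold change 0.18, FDR = 0.0279) and the kinase *Camk2a* lower (log2 fold change -0.35, FDR = 0.0294). Among 29 voltage-gated channels, 1 was higher and *Scn3b* and *Kcnma1* were lower (log2 fold change -0.20, FDR = 0.0398 and log2 fold change -0.29, FDR = 0.0429). These calls were unstable. *Shank3*, *Scn3b* and *Kcnma1* each lost theirs in 6 of the 10 fits without a single culture, and *Camk2a* in 4. The postsynaptic list held no call without unstimulated replicate 3, and the channels held none without replicate 1 at 100 ng/ml or unstimulated replicate 5. Leaving out replicate 2 at 100 ng/ml gave 3 higher and 4 lower in the first list, and 2 higher and 6 lower in the second.

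Axon and cytoskeleton genes changed in both directions, with 17.2% called beside 9.77% of all genes. *Stmn4*, a stathmin that destabilizes microtubules, fell from 55.3, 54.98, 46.3, 44.4 and 50.02 CPM to 41.1, 37.5, 37.2, 41.2 and 37.7 CPM (log2 fold change -0.37 ± 0.07 SE, FDR = 0.00292). *Ina*, α-internexin (log2 fold change -0.44, FDR = 0.00876), and *Mapt*, tau (log2 fold change -0.31, FDR = 0.00909), were lower as well. *Tubb3* (log2 fold change 0.43, FDR = 0.00272) and *Tuba1a* (log2 fold change 0.19, FDR = 0.0346) were higher, and these 5 were the calls among 29 genes. Without replicate 2 at 100 ng/ml 5 were higher, and without most other cultures 1. Of 15 markers of cerebellar neurons tested, *Tubb3* rose and *Calb1*, calbindin of Purkinje cells, fell (log2 fold change -0.56, FDR = 0.00346). This was 13.3% called, beside 9.77% of all genes, with a median of -0.18 and 4 log2 fold changes above 0. Of 13 markers of the oligodendrocyte lineage, 4 fell and 0 rose (30.8% called, beside 9.77% of all genes), with a median of -0.15. Among the falls were *Mbp* (log2 fold change -0.31, FDR = 0.0239), *Mag* (log2 fold change -0.30, FDR = 0.0299) and *Enpp6* (log2 fold change -0.44, FDR = 0.0204). *Mog* (-0.05), *Cnp* (-0.05) and *Sox10* (-0.02) were not called. *Opalin*, the 1 marker above 0, was not called either (log2 fold change 0.32, FDR = 0.0595). Of the 4 falls, 1 or 2 were called without replicates 1 or 3 at 100 ng/ml or unstimulated replicates 1, 2 or 5. The part of cells of the oligodendrocyte lineage in the neuronal calls was not tested.

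**Figure D5:**
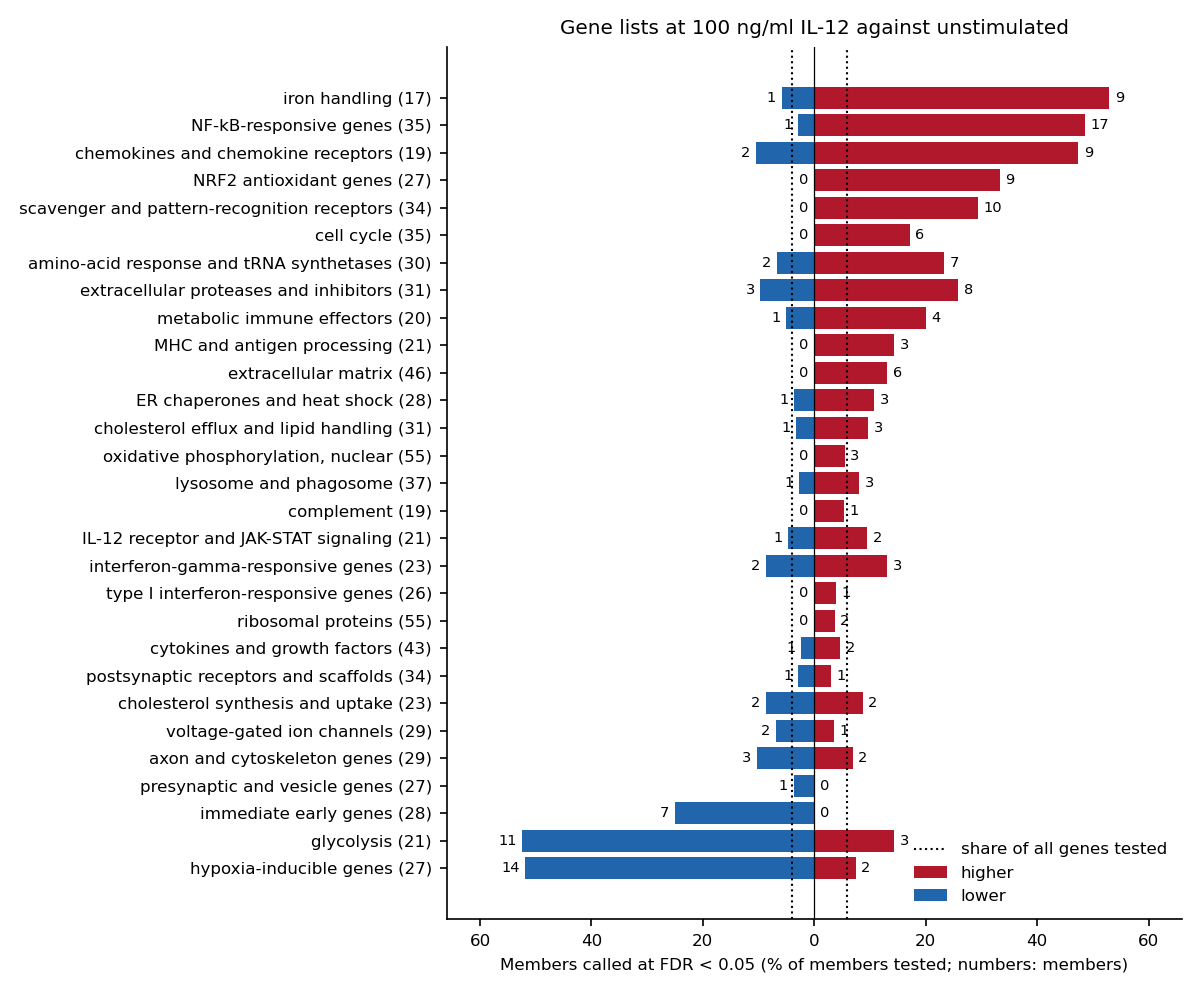
Share of the tested members (in brackets) of 29 gene lists called higher (red) or lower (blue) at 100 ng/ml, with the number of members called at each bar; dotted lines mark the shares over all genes tested, 5.83% higher and 3.93% lower. Iron handling, NF-kB-responsive genes and chemokines reach the largest shares of rises, and hypoxia-inducible genes and glycolysis the largest shares of falls.

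Of 935 long noncoding RNA genes tested, 21 were higher and 38 lower, beside 5.83% higher and 3.93% lower of all genes tested. *Gm7932* rose from 8.37 ± 0.683 CPM to 12.9 ± 0.672 CPM (log2 fold change 0.63, FDR = 1.22e-04), and it lies upstream of *Aoc1* on the same strand of chromosome 6. *Gm43305* was abundant and rose from 717 ± 38.3 CPM to 895 ± 51.3 CPM (log2 fold change 0.32, FDR = 0.001198), and *Gm12840* rose from 13.5 ± 1.41 CPM to 19.8 ± 2.62 CPM (log2 fold change 0.55, FDR = 0.00289). *1700019G24Rik* (log2 fold change -0.53, FDR = 0.00367), *E230029C05Rik* (log2 fold change -0.76, FDR = 0.00511) and *Reno1* (log2 fold change -0.48, FDR = 0.00723) were lower, each overlapping other genes on the opposite strand.

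Promoters were searched for 4 short motifs on both strands, from 250 bases before to 50 after the annotated start, for the 11435 tested genes that matched a promoter by symbol in RefSeq (GRCm38.p6). The letters GGNNTTTCC, a shortened NF-kB site, were present in 7.28% of these promoters, in 8.36% of genes called higher and in 12.8% of the 117 that rose by at least 0.5 on the log2 scale. TGANTCA, the site of AP-1, was in 6.43%, 9.22% and 12.8%. TTCNNNGAA, the site of STAT proteins, was in 8.14%, 10.8% and 7.69%. Among genes called lower, the shares were 7.37% for the NF-kB letters, 7.81% for those of AP-1 and 8.04% for those of STAT. ACGTG, the core that HIF binds, was in 28.4% of all promoters, 24.9% of those called higher and 29.9% of those called lower. A match is a run of letters and not a site shown to be bound.

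Of the 17 NF-kB-responsive genes that rose, 13 matched a promoter and 6 held the NF-kB letters. Of the 14 hypoxia-inducible genes that fell, 13 matched a promoter and 11 held ACGTG, and of the 11 glycolytic genes that fell 7 of 11 did. These genes were listed because they are known targets, so the shares are a description of the lists.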

How the data were processed

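RNA-seq was analysed of 15 cultures of mouse cerebellar cells, 5 per group, of which 10 enter the comparison. The deposited values are estimated counts and TPM for 121798 transcripts per culture, made by the authors with a program not given in the sources used here. The submitters' processing notes name FastQC 0.10.0, STAR 2.7.8a, featureCounts and the build GRCm39, which describe counts of another kind. The deposited estimated counts were summed to genes with GENCODE release M39 (GRCm39), which matched 99.0% of transcripts and gave 35142 genes, and rounded. The deposited TPM served for levels of marker genes, and lengths of transcripts in the deposited tables were used in 1 alternative. Assigned reads per culture lay between 25746096 and 38435850.

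Genes that reached 1 CPM in 2 or more cultures were scaled with TMM (factors 0.981 to 1.004 in the 10 cultures) and tested with edgeR 4.0.16 (glmQLFTest, R 4.3.3) in 1 fit of the 3 groups, as the study's methods use edgeR with this filter. The biological coefficient of variation was 8%. A gene was called at an FDR under 0.05. Alternatives were DESeq2 1.42.0, RLE factors, library size alone, no filter, a filter of at least 10 counts in every culture, only the 10 cultures compared, the likelihood-ratio test, the replicate number as a block, length-scaled TPM, a test against a 1.2-fold change, and each culture left out in turn. The test was checked on simulated counts. Python 3.11.15 was used for counting.

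The members and gene lists were chosen with earlier results of these data known, from general knowledge. Named genes are protein-coding, called, with at least 1 CPM in the higher group, without overlap of the groups, not labelled in the study's heatmap or hub network and not predicted models. They are the 12 largest rises and falls, the 8 with the smallest p each way, up to 4 called members of each list (these without the demands on level and overlap), 3 long noncoding RNA genes each way, and *Il12rb1*, *Il12rb2*, *Stat4*, *Jak2* and *Tyk2*. Other names belong to members of a list that was counted, or were chosen after their values were seen. Some list members are counted but not reported by name here. Errors of CPM are SD over 5 cultures, and errors of log2 fold changes are standard errors. Replicate numbers were not taken to pair the cultures, as the labels do not say so. The deviations of cultures with the same number had correlations from -0.154 to 0.111, beside -0.174 to 0.311 for cultures with different numbers. These values cannot exclude a shared litter or plating.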

Additional observations from a re-analysis of the deposited data

Results flagged for a closer look

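Of 254 groups of 5 cultures, the levels of 127 named genes in each group, 16 held a culture whose gap to the nearest other exceeded the limit of 0.71 of the group's range (Dixon's test). Chance gives about 1 such group in 20. Among genes that fell, unstimulated replicate 4 held 8.88 CPM of *Ccr1* against 3.29 to 4.63 CPM in the other controls, unstimulated replicate 2 held 10.02 CPM of *Minar1* (others 11.6 to 11.9) and 183 CPM of *Npc1* (others 218 to 222), and replicate 2 at 100 ng/ml held 79.1 CPM of *Bmp6* (others 85.2 to 87.7). Among genes that rose, unstimulated replicate 3 held 39.02 CPM of *Fbxl5* (others 41.1 to 41.5) and 33.3 CPM of *Cxcl16* (others 25.95 to 28.1), and unstimulated replicate 4 held 79.1 CPM of *Neu1* (others 70.0 to 72.1) and 32.7 CPM of *Mvk* (others 34.4 to 35.0). Replicate 1 at 100 ng/ml held 9.42 CPM of *Il34* (others 5.51 to 6.23), 8.76 CPM of *Clec4d* (others 7.15 to 7.56) and 40.7 CPM of *Pmvk* (others 33.9 to 35.6). Replicate 2 at 100 ng/ml held 28.7 CPM of *Psmb10* (others 33.2 to 34.6) and 32.9 CPM of *Mvk* (others 39.7 to 42.3). Of the signaling genes that were not called, replicate 5 at 100 ng/ml held 1.16 CPM of *Il12rb1* (others 0.820 to 0.873), unstimulated replicate 1 held 64.0 CPM of *Jak2* (others 55.8 to 57.8), and unstimulated replicate 4 held 42.6 CPM of *Tyk2* (others 34.1 to 36.4).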

How the results depend on the processing

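The 1500 calls at 100 ng/ml (896 higher, 604 lower) fell to 946 (330 lower) with only the 10 cultures compared, to 903 (564 higher, 339 lower) with length-scaled TPM, and to 104 (70 higher, 34 lower) when tested against a 1.2-fold change. Without a filter on low counts 373 genes were lower. Leaving out single cultures gave 935 to 2932 calls, 591 to 1518 higher and 320 to 1414 lower, and without the culture that gave the highest count, replicate 2 at 100 ng/ml, 1445 of the 1500 genes were called again. DESeq2, RLE factors, library size alone, at least 10 counts in every culture and the likelihood-ratio test gave 1487 to 1964 calls. With the replicate number as a replicate block 1169 genes were called, 717 higher and 452 lower. As the labels do not say that the numbers pair the cultures, this is not taken as a paired analysis. The causes of these differences were not tested. A test against a fold threshold calls fewer genes by construction. The fit of only the 10 cultures compared holds fewer cultures, and the part of this was not tested. The count by the study's thresholds, 308, was between 264 and 428 under the same settings, which were applied to it after the data had been seen. Of 127 named genes, only *Il12rb1*, not called, turned its direction, to 0.21 with length-scaled TPM. Of these genes, 26 lost their call with length-scaled TPM, 22 with only the 10 cultures compared, 19 without a filter, 16 with the replicate block and 86 against a 1.2-fold change. Leaving out a single culture removed 2 to 26 calls, the most without replicate 1 at 100 ng/ml or unstimulated replicate 1, and the other settings removed 0 to 3. Of genes under 5 CPM, 178 of 2980 were called, beside 786 of 7681 from 5 to 50 CPM, and the part of depth in this was not tested. No protein was measured, a single time was sampled, and the cells that carry each change are not known from whole cultures.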

Other observations

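Beyond the lists, families defined by symbol were counted after their values had been seen. Of 17 genes named Clec, the C-type lectin receptors, 9 rose and 0 fell (52.9% called, beside 9.77% of all genes tested, with a median log2 fold change of 0.43). They include *Clec5a*, *Clec4a2*, *Clec4a3* and *Clec12b*, which are in none of the lists above. Of 255 solute carriers, 26 rose and 7 fell (12.9% called, beside 9.77% of all genes tested). Among the 26, chosen after their values were seen and not as a group, are *Slc31a2*, a copper transporter of endosomes, *Slc48a1*, a heme transporter, *Slc46a1*, a transporter of folate and heme, and the zinc transporters *Slc39a1*, *Slc39a4* and *Slc39a7*. All 4 metalloreductases of the Steap family tested had log2 fold changes above 0, from 0.25 to 1.05, and *Steap2*, *Steap3* and *Steap4* were called.

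The 13 protein-coding genes of the mitochondrial genome leaned downward. Of these, 12 had log2 fold changes under 0, the median was -0.12, and *mt-Co1* was called (7.69% called, beside 9.77% of all genes tested). The 78 nuclear genes of mitochondrial ribosomal proteins had a median of 0.08, with 68 above 0 and 4 called higher (5.13% called, beside 9.77% of all genes tested). Proteasome genes gave 5 rises and 0 falls among 49 (10.2% called, beside 9.77% of all genes tested), with a median of 0.06.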
